A study of Triticum dicoccoides with 12 samples.

Results

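Of the 12 arrays in the series, 6 carry the comparison described here, the difference between a drought-resistant and a drought-susceptible genotype of wild emmer wheat at the end of a terminal drought. The R group is genotype Y12-3 under terminal drought (3 arrays), and the S group is genotype A24-39 under terminal drought (3 arrays). The well-watered arrays of R and of S, 3 for each genotype, were used to show where each difference stood without drought and to estimate the spread. All plants were 10 weeks old and in reproductive growth, were grown in quartz sand mixed with peat, and were sampled as phyllome, a term for leaf-like organs. The description field of each sample closes with a line that calls it watered Y12-3, whatever its title says. Groups were taken from the titles, and the source names and characteristics give the same groups. No transgene, deletion or agent other than the watering regime is given in the labels, and each genotype is represented by a single named ecotype. Whether the 3 samples of a group are separate plants is not said in the labels. A p-value here is read against the spread of samples within their groups, pooled over all 12 arrays, and that spread may be technical.

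Wild emmer is the tetraploid ancestor of domesticated tetraploid wheat, and its natural populations come from habitats that differ in rainfall. Terminal drought is a lack of water late in the life cycle, when the grain fills. Leaves respond by closing stomata, turning down the photosynthetic apparatus, storing compatible solutes and protective proteins, and moving carbon and nitrogen toward the ear. A tetraploid carries closely related copies of most genes on its pair of subgenomes, and short array probes designed on bread wheat sequence can match these copies, or alleles of them, unequally. A lower transcript level and a sequence difference under the probes therefore cannot be told apart on this array. Nor can fewer cells of a type and less RNA per cell in a whole-organ sample.

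The median signal was 61.8, 79.5 and 58.6 on the R drought arrays, against 76.7, 78.0 and 76.5 on the S drought arrays. Between 21848 and 23885 probe sets per R drought array lay at or above the noise limit of 129, against 23603 to 24251 per S drought array. That limit is the 95th percentile of 276 values from 23 probe sets that target no wheat transcript. Their median was 18.7 and their highest value 350. Pearson's r across probe sets was 0.928 to 0.940 within R drought, 0.918 to 0.931 within S drought and 0.859 to 0.908 between them. Of the leaf markers listed, FBP and petC are in the annotation, and the brighter probe set of each was above the limit on all 6 drought arrays, while no marker listed for endosperm, root or anther is annotated. The ratio of the 3′ to the 5′ control probe set for sucrose synthase was 15.9, 9.76 and 10.3 in R drought, against 24.0, 21.1 and 34.7 in S drought. The 18S rRNA control read 174, 77.9 and 33.8 in R drought, against 295, 297 and 339 in S drought. Both of these RNA measures moved with genotype under drought, and their part in the differences was not tested. The same ratio for ubiquitin was 0.240, 0.228 and 0.252 in R drought, against 0.247, 0.249 and 0.227 in S drought, and for glucose-6-phosphate dehydrogenase it was 3.18, 2.33 and 4.48 in R drought, against 3.59, 3.78 and 5.10 in S drought. The genotypes overlapped in both.

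Under drought, 2873 of 38398 tested probe sets differed between R and S (7.48% of those tested, limma with Benjamini-Hochberg adjustment over all tested probe sets, adjusted p under 0.05). R was higher in 1373 (3.58%) and lower in 1500 (3.91%). The arrays of the genotypes did not overlap in 2837 of these 2873. The background for that count is high, since 10424 of all tested probe sets (27.1%) had R and S drought arrays that did not overlap. The difference was at least 2-fold in 2621 of the called probe sets and at least 4-fold in 1421 on the log2(signal + 16) scale, which understates the change of dim probe sets. The median difference of all tested probe sets was −0.09 in log2, and the balance of directions depended on the scaling of the arrays. With arrays scaled to their medians, 1604 were higher and 1126 lower. Scaled to the hybridization controls, which read lower in R drought (6986, 5402 and 4741, against 7488, 9454 and 8798 in S drought), 2092 were higher and 512 lower. Quantile normalization gave 1407 higher and 1285 lower, and poly-A control scaling 784 higher and 967 lower. Leaving out single drought arrays lowered the counts most for R replicate 1 (837 higher and 900 lower), R replicate 2 (832 and 1045), S replicate 2 (927 and 787) and S replicate 3 (969 and 923).

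**Figure D1:**
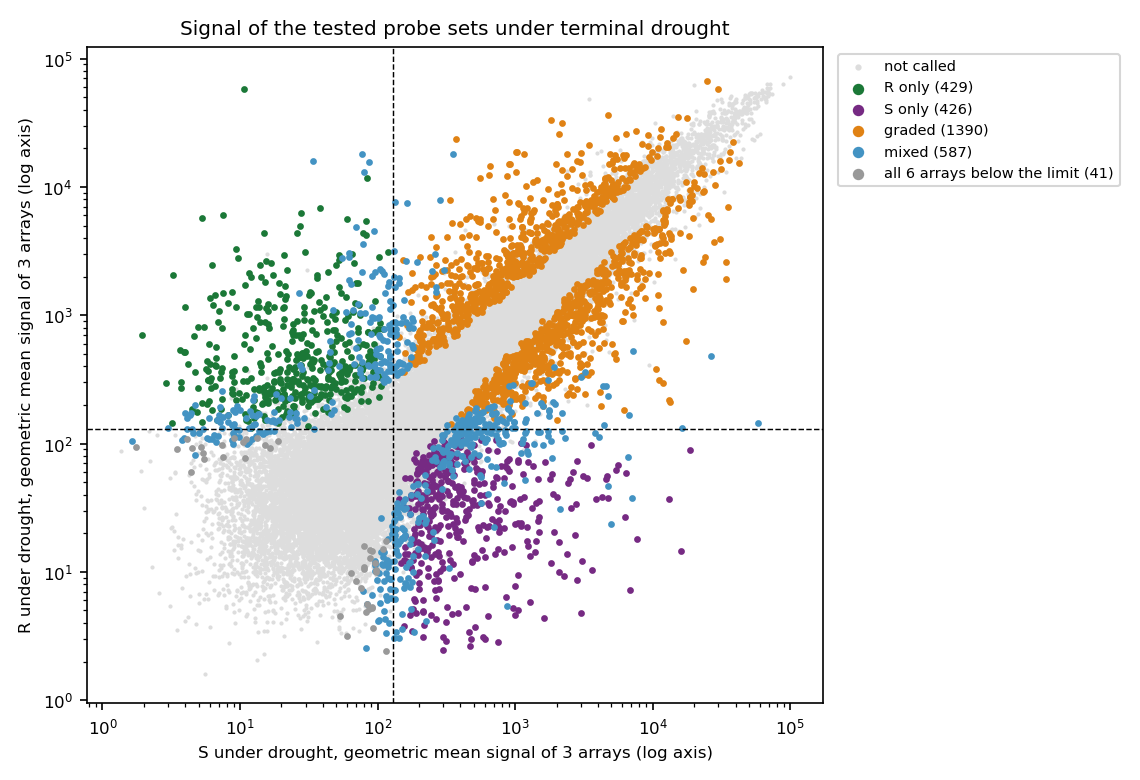
Signal of each of the 38398 tested probe sets on the 3 R drought arrays against the 3 S drought arrays, with S on the horizontal and R on the vertical axis (geometric means, both axes logarithmic). Colours mark the classes of called probe sets, dashed lines the noise limit. The 429 probe sets seen in R alone lie left of the vertical dashed line, the 426 seen in S alone under the horizontal one, and the 1390 graded ones on both sides of the diagonal.

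Sorted by where the drought arrays lay, the called probe sets fell into all-or-none and graded differences. In 429, all 3 R drought arrays were at or above the noise limit and all 3 S drought arrays were under it. The reverse held for 426. In 1390, all 6 drought arrays were at or above the limit, and R was higher in 685 and lower in 705. The other 587 were mixed, with the limit running through the arrays of a group or of both, and in 41 all 6 arrays were under it. These classes describe the same 6 arrays as the contrast itself, and their sizes depended on the scaling. Scaled to the hybridization controls, 688 were R only and 224 S only, with 920 graded sets higher and 115 lower in R. Poly-A control scaling gave 352 R only and 343 S only, with 204 graded sets higher and 319 lower. Median scaling gave 483 R only and 360 S only, with 800 graded sets higher and 450 lower. Called or not, 600 tested probe sets had the R only arrangement and 717 the S only arrangement, and 71.5% and 59.4% of them were called. Of the 16969 probe sets with all 6 drought arrays at or above the limit, 8.19% were called. The all-or-none arrangements require drought arrays that do not overlap and the 16969 do not, so these shares cannot be compared. Of all 10424 tested sets without overlap, 2837 were called.

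All-or-none differences are given as bounds, since the dim genotype lay in the noise. The bound of an all-or-none probe set is the geometric mean of its bright arrays over the limit, so that R only sets were at least 3.03-fold brighter in R at the median and at least 447-fold at the top. In S only sets the median bound was 2.57-fold and the highest 145-fold. A bound of at least 10-fold was reached by 59 R only and 50 S only sets. The bright arrays nearest the limit read 129.6 in R only sets and 129.9 in S only sets, and the dim arrays nearest to it 128.6 and 128.5. All 3 bright arrays lay at or above 350, the highest control value, in 183 of the 429 R only sets and in 156 of the 426 S only sets. Graded differences had a median of 1.30 in log2 where R was higher and −1.39 where R was lower. At least 2-fold were 1138 of the 1390 graded sets, at least 8-fold 76 and at least 32-fold 5. The graded counts, higher and lower in R, were 381 and 428 without R drought replicate 1, 382 and 444 without R drought replicate 2, 425 and 364 without S drought replicate 2, and 449 and 419 without S drought replicate 3.

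A bound of at least 50-fold was reached by 3 R only and 5 S only sets. The all-or-none probe sets described next had no gene in the annotation and were ranked by log2 difference, not by bound. Among those all-or-none in both regimes, Ta.7259.1.S1_at read 5615, 5731 and 5938 in R drought, against 2.34, 33.3 and 1.94 in S drought. It was at least 44.6-fold brighter in R (log2 difference 7.83 ± 0.43 SE, adjusted p = 2.1e-07), and it stood the same way in well-watered plants, with 4255, 6928 and 5105 in R against 40.1, 4.35 and 17.1 in S. Ta.28263.1.S1_at was similar, at 6677, 5052 and 6425 in R drought against 5.73, 2.28 and 32.3 in S drought (at least 46.5-fold, 7.81 ± 0.42, adjusted p = 1.8e-07). In both sets all 6 R arrays lay between 4255 and 12647 and all 6 S arrays under the limit.

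The largest R only bound belonged to Ta.26910.1.S1_at, among the brightest signals on the R drought arrays. It read 68320, 61750 and 45511 in R drought, against 40.3, 3.30 and 9.22 in S drought, at least 447-fold (10.90 ± 1.59, adjusted p = 0.00064). Its well-watered R arrays were split, with 12612, 6.44 and 5953, so replicate 2 was under the limit while the other R arrays were far above it. TaAffx.110394.1.S1_at read 4667, 3713 and 4709 in R drought, against 77.2, 6.32 and 6.86 in S drought (at least 33.6-fold, 6.91 ± 1.05, adjusted p = 0.00092). When watered, it read 3183, 5610 and 1721 in R, against 22.0, 1035 and 6.21 in S, so well-watered S replicate 2 was the single S array above the limit.

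On the S side, Ta.23191.1.S1_at read 7.28, 6.02 and 69.5 in R drought, against 7043, 21586 and 27805 in S drought. It was at least 125-fold dimmer in R (−8.84 ± 0.64, adjusted p = 1.7e-06), and under the limit on the 3 well-watered R arrays as well. TaAffx.42928.1.S1_at read 5.22, 6.04 and 12.2 in R drought, against 8265, 5206 and 7260 in S drought (at least 52.6-fold, −8.17 ± 0.47, adjusted p = 2.7e-07). Both sets were under the limit on all 6 R arrays and above it on all 6 S arrays. Ta.30733.1.S1_x_at had 16.4, 92.6 and 33.7 in R drought, against 13090, 12733 and 13828 in S drought (at least 102-fold, −7.89 ± 0.61, adjusted p = 2.5e-06), and well-watered R replicate 3, at 188, was its single R array above the limit. Ta.13818.1.S1_at stood out by its regime, with 106, 121 and 56.5 in R drought against 29382, 6783 and 32828 in S drought (at least 145-fold, −7.46 ± 0.70, adjusted p = 1.4e-05). In well-watered plants it had 14.9, 34.4 and 25.5 in R against 74.5, 3.92 and 149.7 in S, which leaves 1 of 6 arrays above the limit.

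Among graded sets with no annotated gene, Ta.438.3.S1_at had the largest difference upward and Ta.3784.1.S1_x_at the largest downward. Ta.438.3.S1_at read 28197, 23333 and 20107 in R drought, against 554, 314 and 287 in S drought (5.94 ± 0.45, adjusted p = 2.3e-06). Ta.3784.1.S1_x_at read 209, 340 and 133 in R drought, against 17134, 12561 and 10826 in S drought (−5.86 ± 0.40, adjusted p = 9.5e-07). In neither did the groups come near each other. Next in size were Ta.8449.1.A1_at (9745, 6770 and 7343 in R drought, against 509, 217 and 340 in S drought, 4.48 ± 0.67, adjusted p = 0.00076) and TaAffx.80290.1.S1_x_at (149, 296 and 235 in R drought, against 7994, 21568 and 13445 in S drought, −5.82 ± 0.55, adjusted p = 1.4e-05).

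Of the well-watered arrays, R replicate 3 had the highest median signal (151.5) and the most probe sets at or above the limit (33042), and S replicate 2 carried signal in many probe sets that the other S arrays lack. Of the 59 R only sets with a bound of at least 10-fold, 3, 19 and 2 were at or above the limit on well-watered S replicates 1, 2 and 3. On well-watered R replicates the numbers were 57, 51 and 57. Over all 429 R only sets, the well-watered S replicates had 43, 108 and 33 at or above the limit and the well-watered R replicates 391, 332 and 384. Of the 50 S only sets with such a bound, 7, 9 and 15 were at or above it on well-watered R replicates 1, 2 and 3. Over all 426 S only sets, the well-watered R replicates had 141, 134 and 167 and the well-watered S replicates 349, 361 and 368. Whether RNA of both genotypes was mixed in any of these samples was not tested. Counts that rest on the well-watered arrays are given from all 12 arrays and then, for the classes and the interaction, from a fit without the replicate 2 arrays of both watered groups.

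All-or-none differences were mostly present in the same direction in watered plants. Of the 429 R only sets under drought, 418 had the same sign when watered, 293 were called higher in R there too (4.36% of all tested probe sets were), and 0 were called lower (1 at an unadjusted limma p under 0.05). The arrangement was R only in both regimes for 203 sets, or 344 without the replicate 2 arrays of both watered groups. Of all tested probe sets, 1.98% were R only when watered. Of the 426 S only sets, 386 had the same sign, 216 were called lower in R when watered (2.92% of all tested), and 0 were called higher (6 at an unadjusted p under 0.05). The arrangement was S only in both regimes for 142 sets, or 172 without the replicate 2 watered arrays, and 0.987% of all tested were S only when watered. Of the graded sets, 574 of 685 with R higher and 593 of 705 with R lower had the same sign when watered. Where R was higher under drought, the median was 1.30 under drought and 0.65 when watered, and 226 of 685 were called the same way and 3 the opposite way. Where R was lower, the medians were −1.39 and −0.60, with 207 of 705 called the same way and 2 the opposite way. In R only sets the medians were 3.16 and 2.89, and in S only sets −2.89 and −1.93. The probe sets were selected by the drought arrays, so the watered medians test no change in size. Both contrasts use the same residual spread of a probe set, so a call under drought favours sets where a watered call is easier too. Over all tested probe sets, R was higher when watered in 56.7%. A fit without replicate 2 of both watered groups called 446 R only and 414 S only sets under drought. Of these, 436 and 361 had the same sign when watered, with watered medians of 3.37 and −2.11. In that fit 323 R only and 192 S only sets were called the same way when watered, and 0 and 1 the opposite way. The graded sets called the same way when watered were 188 of 626 with R higher and 175 of 590 with R lower, and 6 and 3 were called the opposite way. Among them 532 and 503 had the same sign, with watered medians of 0.77 and −0.85.

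**Figure D2:**
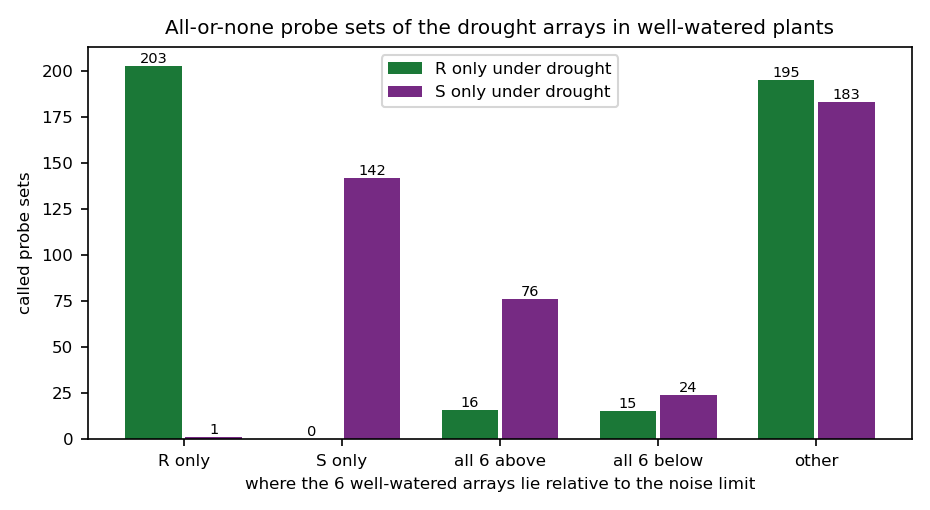
Number of called probe sets (vertical axis) by where their 6 well-watered arrays lie relative to the noise limit, for sets that were R only under drought (left bar of each pair) and S only under drought (right bar). Of the R only sets 203 were R only when watered too and 0 were S only, and of the S only sets 142 were S only when watered too, 1 was R only and 76 had all 6 watered arrays at or above the limit.

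**Figure D3:**
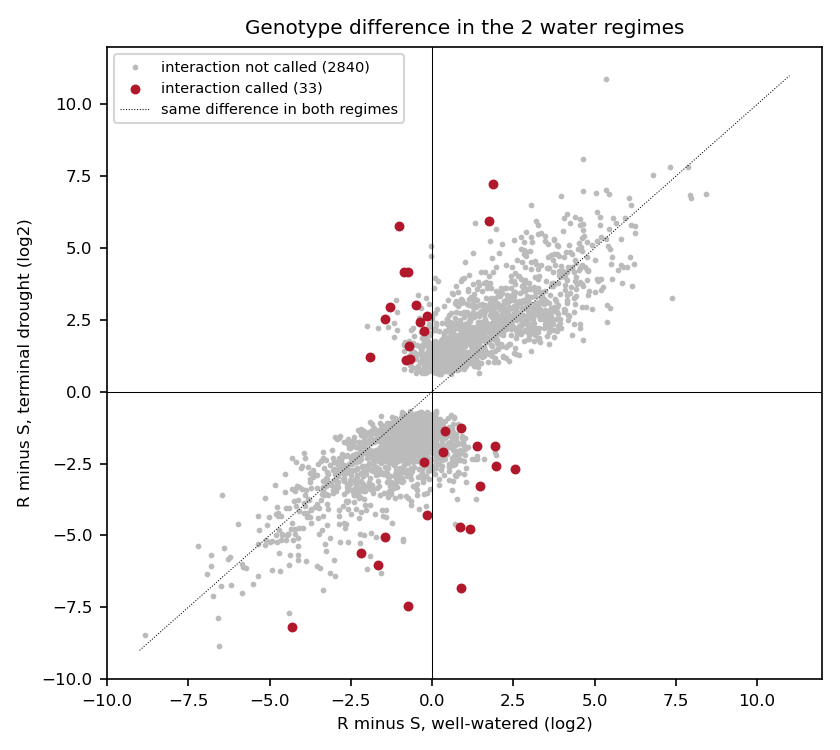
Difference between R and S (log2) under drought on the vertical axis and in well-watered plants on the horizontal axis, for the 2873 called probe sets, with a dotted line where both are equal. The 33 red points pass the interaction test and lie off that line, and 24 of them have the opposite sign when watered.

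A smaller number of all-or-none sets had another arrangement when watered. In 76 of the 426 S only sets all 6 well-watered arrays were at or above the limit, and drought lowered R in 73 of these and S in 30. In 16 of the 429 R only sets all 6 well-watered arrays were at or above it, and drought lowered S in all 16 and R in 5. In another 24 S only sets no well-watered array was at or above it, and S rose in 22. In 15 R only sets none was, and R rose in all 15. The drought contrasts within each genotype share the drought arrays that placed the sets in these classes, so these counts describe them and test nothing. Without the replicate 2 watered arrays, all remaining watered arrays were at or above the limit in 79 S only sets, of which R fell in 75, and in 19 R only sets, of which S fell in 14. None was in 31 S only sets, of which S rose in 23, and in 20 R only sets, of which R rose in 18. Over all tested probe sets, the 6 well-watered arrays were all at or above the limit in 46.9% and all under it in 9.25%. Drought lowered 19.8% of all tested sets in R and 13.8% in S, and raised 13.6% in R and 13.5% in S.

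The test of the difference between regimes, the interaction of genotype and drought, passed for 57 of all tested probe sets (0.148%). It passed for 33 of the 2873 that differed under drought. The interaction shares the drought arrays that chose these 2873, so a higher share among them is favoured by that choice. The signs and drought patterns given next describe the sets and test nothing. In 15 of the 33 R was higher under drought and in 18 it was lower. The difference had the opposite sign when watered in 24 of them, and 11 were also called when watered. Without the replicate 2 arrays of both watered groups, 18 probe sets passed the interaction and differed under drought, and leaving out single arrays moved the count widely. It was 19 and 17 without R drought replicate 1 or 2, 13 without S drought replicate 3, 16, 54 and 21 without watered R replicate 1, 2 or 3, and 18 and 14 without watered S replicate 1 or 2. Where R was higher, drought raised R with no call in S in 8 sets, and lowered S with no call in R in 3. Where R was lower, drought raised S with no call in R in 9, and lowered R with no call in S in 5. In the other 8 sets both genotypes were called. Without the replicate 2 watered arrays, the interaction passed for 25 of all tested probe sets. Of the 18 that also differed under drought, R was higher in 10 and lower in 8, 15 had the opposite sign when watered, and 8 were also called when watered. Drought raised R with no call in S in 6 of the 10, and raised S with no call in R in 4 of the 8.

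Ta.28675.1.A1_at, which has no annotated gene, passed the interaction test with a small adjusted p. It read 47033, 32094 and 24044 in R drought, against 1853, 1984 and 1654 in S drought, and 5515, 8234 and 7880 in watered R against 12461, 13161 and 9885 in watered S. The genotypes changed places, with R higher on every drought array and lower on every watered array (interaction 4.89 ± 0.35, adjusted p = 2.4e-05). Ta.22559.2.A1_at read 16990, 12657 and 11463 in R drought, against 2184, 2282 and 2090 in S drought, and all 6 watered arrays lay between 1697 and 2193 (interaction 2.78 ± 0.28, adjusted p = 0.0009). TaAffx.37150.1.S1_at read 7349, 4246 and 5070 in R drought, against 77.1, 77.3 and 96.0 in S drought. It was under the limit on all 6 watered arrays (interaction 6.78 ± 0.70, adjusted p = 0.00093). These 3 were chosen after their values were seen.

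Among genes with a symbol, 0 passed the threshold between the genotypes under drought in limma, and 2 of the 11 probe sets, those of XTH and GAPN, had an unadjusted p under 0.05. With 11 probe sets, against 7.48% of all tested called, nothing is read from that count. The annotation, dated 2007, gives a gene to 1273 probe sets and a symbol to 13 genes, of which 8 (11 probe sets) were tested. Of 9 gene lists, 5 had a tested gene and 0 had a called one. The photosynthesis list had FBP, GAPN and petC, the cell wall and cytoskeleton list XTH and TUBA, and the redox, methyl cycle and transcription lists CAT1, SAHH and TBP1. The lists for dehydrins, sugar metabolism, defence and hormones had no tested gene. FBP, a fructose bisphosphatase, read 472, 1921 and 2707 in R drought, against 1193, 1904 and 1659 in S drought (−0.20 ± 0.45, adjusted p = 0.86). The R arrays spanned the S arrays. GAPN, the non-phosphorylating glyceraldehyde-3-phosphate dehydrogenase that makes NADPH in the cytosol, read 224, 963 and 1667 in R drought, against 1391, 2055 and 1399 in S drought (−1.13 ± 0.49, adjusted p = 0.20). Its groups overlapped through R drought replicate 3, and without that array the difference passed the threshold. petC, which encodes the Rieske protein of the cytochrome b6f complex, read 10878, 24027 and 24579 in R drought, against 22966, 33496 and 28871 in S drought (−0.60 ± 0.29, adjusted p = 0.25). In each of these genes R drought replicate 1 was the lowest of the 6 arrays, and without it FBP stood at 0.55.

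The remaining genes with a symbol act in methyl metabolism, redox, the cytoskeleton, transcription and the cell wall. SAHH, the hydrolase that clears S-adenosylhomocysteine in the methyl cycle, differed by 0.21 ± 0.25 and 0.37 ± 0.31 on its 2 probe sets (adjusted p = 0.70 and 0.56). CAT1, a catalase acting on hydrogen peroxide, read 19936, 29673 and 27555 in R drought, against 32834, 40809 and 29067 in S drought (−0.42 ± 0.22, adjusted p = 0.29). TUBA, an alpha-tubulin of microtubules, differed by 0.26 ± 0.24 (adjusted p = 0.60). TBP1, the TATA-binding protein of basal transcription, read 1676, 1476 and 1274 in R drought, against 2379, 1839 and 1898 in S drought. Its groups did not overlap, the difference missed the threshold (−0.46 ± 0.24, adjusted p = 0.30), and in well-watered plants it was −1.07 ± 0.24 (adjusted p = 0.016). XTH, a xyloglucan endotransglucosylase/hydrolase that remodels the cell wall, read 12.7, 55.3 and 15.1 in R drought, against 274, 111 and 132 in S drought (−2.14 ± 0.64, adjusted p = 0.057). Its groups did not overlap, but 4 of the 6 arrays were under the noise limit. The second probe sets of FBP and CAT1, both dim, differed by −0.70 ± 0.62 and −0.15 ± 0.51 (adjusted p = 0.58 and 0.91). COR410, a dehydrin that protects cells against water loss, the thionin genes TTHV, THI1.1 and THI1.2, PFK, and a further probe set each of petC and TUBA were under the limit on all 6 drought arrays and were not tested. Under hybridization control scaling the signs of FBP (0.40), CAT1 (0.18) and TBP1 (0.13) turned, and petC stood at 0.

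Of the 969 tested probe sets that carry a gene of the annotation, 78 were called (8.05%, against 7.48% of all tested), all known here only by locus number (64 genes). R was higher in 35 and lower in 43. Of the 78, 7 were R only, 5 S only, 54 graded (23 higher and 31 lower in R) and 12 mixed, and 23 were called in the same direction when watered (29.5%, against 1164 or 40.5% of all 2873 called). No role is given for a locus number in the annotation, so these are described by their values.

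LOC606308 was the R only gene with the largest bound. Its 2 probe sets gave nearly the same values, 7641, 1244 and 918 on the first in R drought against 63.3, 2.39 and 34.0 in S drought (at least 15.9-fold, 5.64 ± 0.75, adjusted p = 0.00028), and at least 15.1-fold on the second (adjusted p = 0.0015). R drought replicate 1 was far above the other R arrays, and all S drought arrays were under the limit. When watered, R was at 1123, 265 and 497 against 8.01, 2.53 and 7.26 in S. LOC100037571 read 178, 203 and 752 in R drought, against 26.2, 22.0 and 9.58 in S drought (at least 2.33-fold, 3.21 ± 0.61, adjusted p = 0.0045), and it was under the limit on all 6 watered arrays. Its interaction was 4.31 ± 0.86 (adjusted p = 0.069). LOC543090, LOC542997 and LOC100037602 were R only on Ta.27217.1.S1_at, Ta.1200.1.S1_at and Ta.30816.1.S1_at, with bounds of 4.10, 3.03 and 2.53-fold. The second set of LOC542997 was mixed (2.37 ± 0.68, adjusted p = 0.047). On Ta.30816.1.S1_at all well-watered arrays of both genotypes were above the limit.

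Of the S only genes, LOC542771 had the largest bound. On Ta.144.1.S1_at it read 14.5, 40.4 and 3.62 in R drought, against 614, 319 and 765 in S drought (at least 4.12-fold, −4.08 ± 0.57, adjusted p = 0.0004), and the watered arrays gave the same picture. LOC542957 read 50.1, 60.6 and 69.4 in R drought, against 248, 405 and 354 in S drought (−2.19 ± 0.44, adjusted p = 0.0072), while the watered arrays overlapped. LOC543011, LOC543433 and LOC780574 were S only on Ta.4617.1.A1_x_at, Ta.23825.1.S1_at and Ta.5098.2.A1_at, with bounds of 2.56, 2.17 and 2.34-fold. The other tested sets of LOC543011 had the opposite sign and were not called (0.85 and 0.32, adjusted p = 0.57 and 0.77). Those of LOC780574 were graded and not called (−0.30 and −0.66, adjusted p = 0.72 and 0.33). For LOC543433, all well-watered arrays of both genotypes were above the limit.

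Among graded and mixed genes with R higher, LOC606366 and LOC542869 had the largest differences, and each was called on 2 probe sets. LOC606366 read 22921, 9987 and 2191 in R drought, against 573, 350 and 114 in S drought (4.71 ± 0.83, adjusted p = 0.0028). Its second probe set read 16118, 8779 and 10427 in R drought, against 1638, 1113 and 1629 in S drought (2.97 ± 0.61, adjusted p = 0.0079). In watered plants the first set was dim in both genotypes, with the highest of the 6 arrays at 158. The gene's remaining sets were not called, with 0.72 ± 0.47 on Ta.3828.3.A1_a_at and 0.83 ± 0.48 on Ta.3828.3.A1_x_at (adjusted p = 0.42 and 0.35). When watered, the last of these was lower in R (−2.33, adjusted p = 0.0082). LOC542869 read 2455, 3883 and 3330 in R drought, against 180.5, 67.4 and 186 in S drought (4.42 ± 0.53, adjusted p = 0.00011), and its second set gave 3.70 ± 0.60 (adjusted p = 0.0015). When watered, the first set read 4066, 6923 and 4538 in R, against 281, 1422 and 269 in S, with S replicate 2 again above the other S arrays.

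LOC543463 and LOC542871 were graded, with R higher. LOC543463 read 8243, 7128 and 6578 in R drought, against 1574, 2507 and 1586 in S drought (1.97 ± 0.25, adjusted p = 0.00017), and its second probe set gave 1.86 ± 0.27 (adjusted p = 0.00066). LOC542871, a bright signal, stood at 67422, 78976 and 57416 in R drought against 28027, 25555 and 21053 in S drought (1.45 ± 0.23, adjusted p = 0.0014). A further set of LOC542871 gave 0.97 ± 0.25 (adjusted p = 0.028). On Ta.22434.1.S1_at LOC543463 stood at 1.63 ± 0.49 and on Ta.22434.1.S1_x_at at 0.87 ± 0.27, and neither passed the threshold (adjusted p = 0.058 and 0.067). A further probe set of LOC100037602, and LOC606310, LOC543383 and LOC542873, were graded too, with differences of 2.02, 2.12, 2.25 and 1.69, and LOC543085 and LOC542774 were mixed, with 2.88 and 2.12.

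With R lower, LOC543479 had the largest difference of the named genes. On Ta.64.1.S1_at it read 7.50, 52.0 and 134 in R drought, against 17242, 5580 and 3628 in S drought (−6.83 ± 0.70, adjusted p = 2.6e-05). One R array lay just above the noise limit, and all 6 watered arrays were under it, at most 53.2 in R and 3.32 in S. The interaction was −7.73 ± 0.99 (adjusted p = 0.0063), and this was the 1 gene among the 33 probe sets that passed it. Its second probe set read 447, 341 and 433 in R drought, against 2247, 853 and 1118 in S drought (−1.64 ± 0.36, adjusted p = 0.013), and 164, 341 and 278 in watered R against 246, 239 and 219 in watered S.

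LOC542947 was lower in R in both regimes while its level moved. It read 49.99, 113 and 249 in R drought, against 2349, 6192 and 4672 in S drought (−4.97 ± 0.51, adjusted p = 2.6e-05). R drought replicates 1 and 2 were under the noise limit, so the size of the drought difference is uncertain. In watered plants it read 2136, 2075 and 6482 in R, against 85803, 76279 and 67379 in S (−4.63 ± 0.51), and the interaction was −0.34 ± 0.71 (adjusted p = 0.88). LOC543100 read 307, 710 and 1046 in R drought, against 5276, 5735 and 2866 in S drought (−2.82 ± 0.43, adjusted p = 0.00087). LOC606363 read 439, 1968 and 3452 in R drought, against 8112, 13439 and 12234 in S drought (−2.91 ± 0.55, adjusted p = 0.0047). R replicate 1 was the lowest array in both. Taken within R, it was the lowest in 415 of the 705 graded sets with R lower (58.9%). Over all 16969 tested sets with the 6 drought arrays at or above the limit, it was the lowest in 39.4%. The same array was the highest R array in 421 of the 685 graded sets with R higher (61.5%, against 40.1% of the 16969). Both kinds of graded set were chosen by these arrays, so the shares only describe them.

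Among the other named genes with R lower, LOC543235, LOC100125711, LOC606328, LOC780685, LOC543424 and LOC780672 were graded, with differences between −2.06 and −1.46. LOC543292, LOC780585, LOC543186, LOC543002 and LOC100037567 were mixed, with differences between −4.58 and −1.69. In LOC780585 and LOC543186 R drought replicate 1 was far below the other R arrays, at 1.72 against 196 and 405, and at 5.07 against 151 and 378. In LOC543292 the R arrays spread over 13.2, 686 and 292 and the S arrays over 946, 18881 and 4782, and its SE of 1.06 was the largest of the named genes. Calls close to the threshold were those of LOC100037567, LOC543186, LOC100125711, LOC780672 and LOC543085, lost in 20, 17, 16, 12 and 12 of 28 alternatives, and of the LOC542997 sets, lost in 11 of 28 on one and 11 of 24 on the other.

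**Figure D4:**
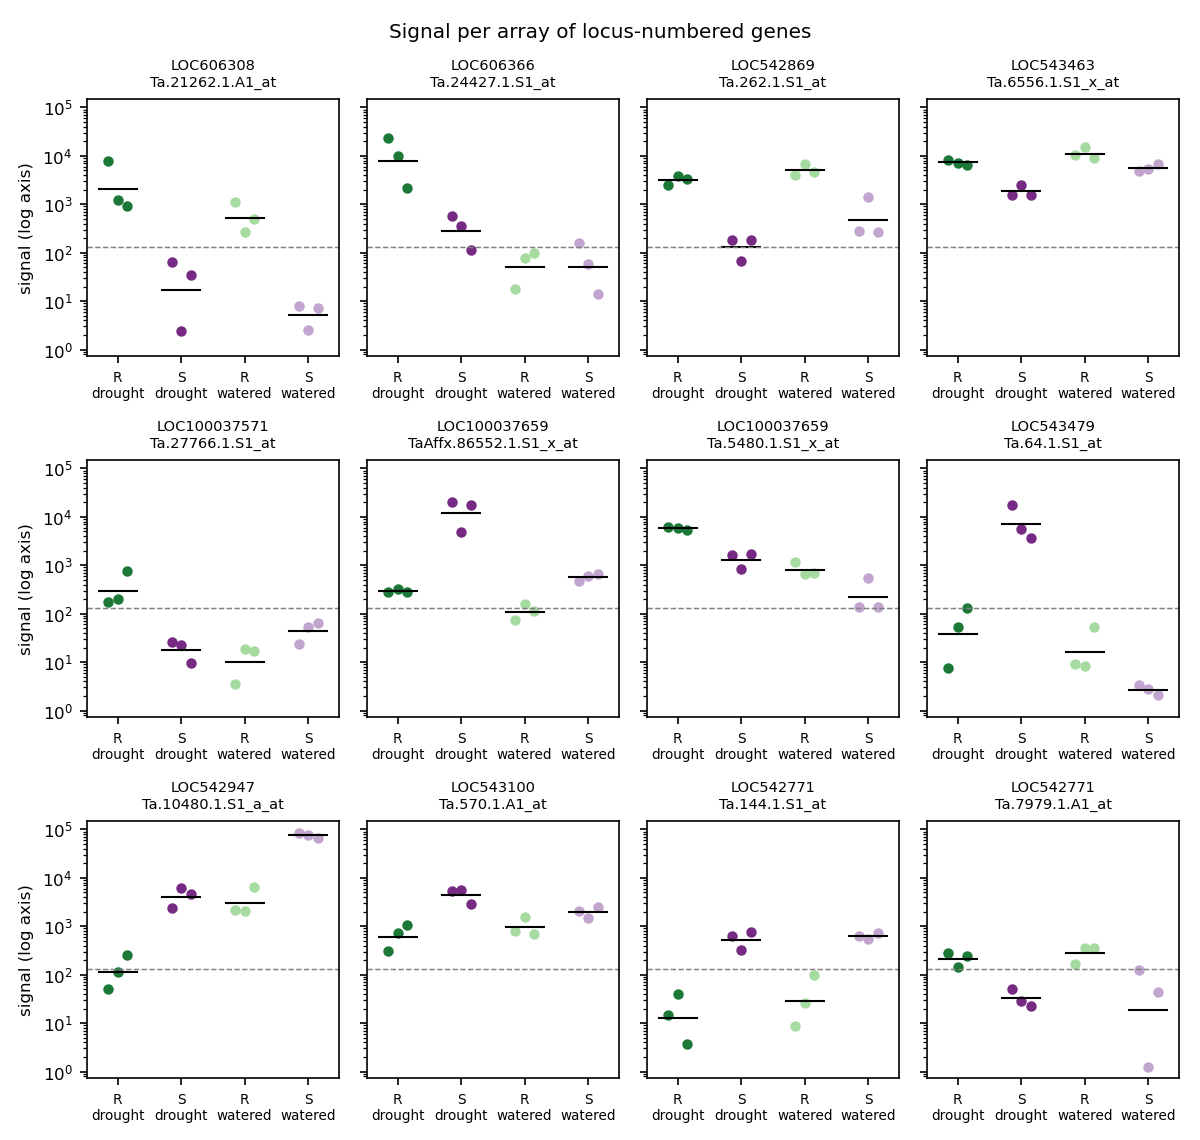
Signal on each array (points, log10 axis) for 12 probe sets of 10 locus-numbered genes, with R drought, S drought, R watered and S watered from left to right in each panel. Horizontal bars are geometric means and the dashed line is the noise limit. LOC543479 has S drought arrays between 3628 and 17242 with the R drought arrays at 134 or less, and LOC542947 keeps R below S in both regimes.

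Called probe sets of the same gene mostly went the same way. Of 13 genes with several called probe sets, 11 had them all in 1 direction and 2 had both. For LOC606308, LOC542869, LOC542871, LOC542997, LOC543463 and LOC100037602, the called sets differ only in the ending of their names. Such sets can read the same transcript, so their agreement is no separate evidence. The 2 genes with both directions were read on sets of different first numbers, as were the agreeing sets of LOC543479 and LOC606366. LOC100037659 read 282, 328 and 274 in R drought, against 20199, 4743 and 17148 in S drought on TaAffx.86552.1.S1_x_at (−5.25 ± 0.44, adjusted p = 4.7e-06). On Ta.5480.1.S1_x_at it read 6164, 5791 and 5330 in R drought, against 1623, 821 and 1672 in S drought (2.12 ± 0.44, adjusted p = 0.009), and the other set of this gene measured 0.32 (adjusted p = 0.74). LOC542771, dim in R on Ta.144.1.S1_at, was bright in R on Ta.7979.1.A1_at, with 285, 142 and 246 in R drought against 50.7, 29.2 and 23.0 in S drought (2.24 ± 0.65, adjusted p = 0.0499), and its other set measured −0.13 (adjusted p = 0.83). The call on Ta.7979.1.A1_at was lost in 15 of 28 alternatives. For these genes the sign of the genotype difference depended on the probe set read. Of the 35 locus-numbered genes named here, 13 had tested probe sets that were not called, 20 in all. Of the 18 belonging to genes called in 1 direction, 3 had the opposite sign.

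A like count was made over all called probe sets whose names share the first number, the number of a sequence cluster in the array design. Of 313 clusters with at least 2 called probe sets, 297 had them in 1 direction and 16 in both. Sets that differ only in the ending of the name were counted as separate members, so agreement within a cluster is partly built in. In 4 clusters an R only set stood beside an S only set. In Ta.14571, 1 set read 109, 109 and 79.9 in R drought, against 3876, 3135 and 3705 in S drought (−4.97 ± 0.32, adjusted p = 4.9e-07), and the other read 1246, 637 and 645 in R drought, against 68.1, 84.4 and 65.4 in S drought (3.21 ± 0.51, adjusted p = 0.0012). In Ta.25703, 1 set read 41.8, 27.9 and 39.8 in R drought against 1181, 1212 and 555 in S drought, and the other 532, 610 and 463 in R drought against 0.746, 28.8 and 2.23 in S drought. Ta.25417 and Ta.6001 had the same mirrored arrangement, with bounds of 4.38 and 1.65-fold for the R only set and 8.60 and 7.16-fold for the S only set. These clusters were noticed after their values were seen.

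**Figure D5:**
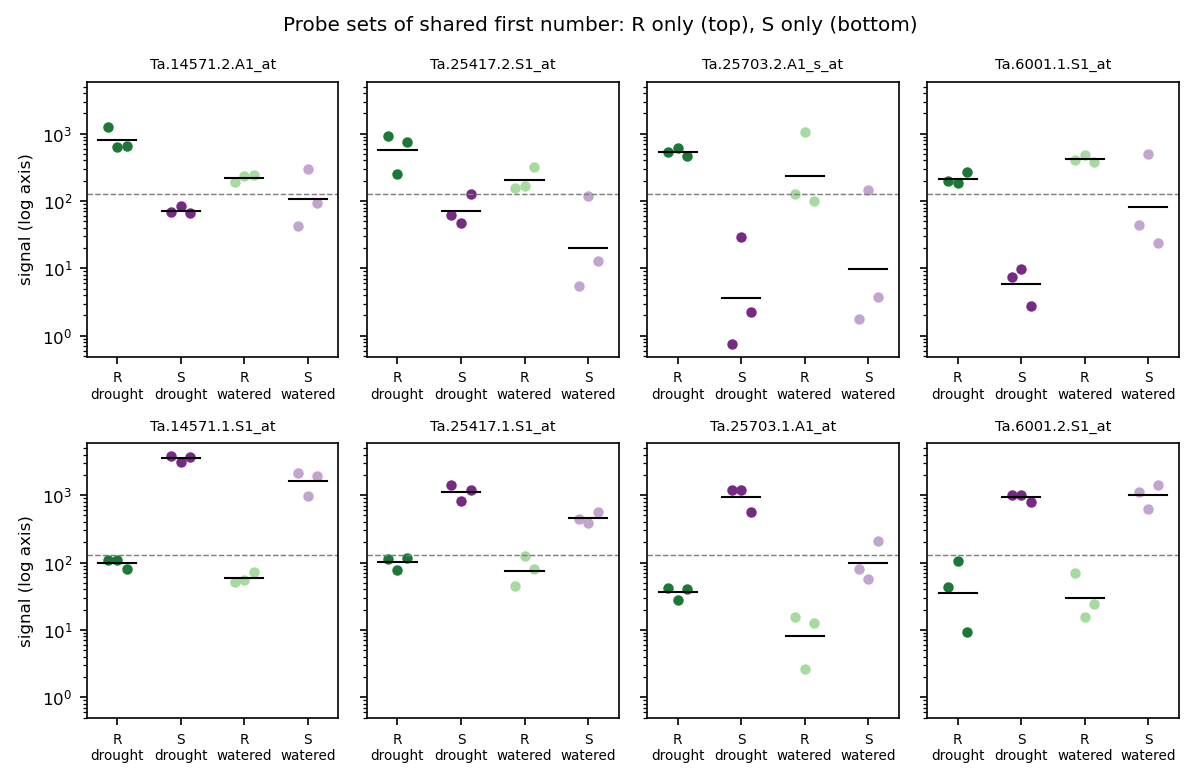
Signal on each array (points, log10 axis) of the R only and the S only probe set in clusters Ta.14571, Ta.25417, Ta.25703 and Ta.6001, with R drought left of S drought and the watered arrays to their right; horizontal bars are geometric means and the dashed line is the noise limit. In each pair 1 probe set has the 3 R drought arrays above the limit and the S drought arrays under it, and the other the reverse.

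The names of the probe sets also differed between the all-or-none and the graded classes, and whether names follow signal level was not tested. The prefix TaAffx was carried by 35.9% of R only and 33.8% of S only sets, 34.9% of mixed sets, 23.7% of graded sets and 41.1% of all tested sets. The ending _x_at is given to probe sets with probes that can match other transcripts. It was found in 10.3% of R only and 9.39% of S only sets, against 14.5% of mixed, 19.7% of graded and 13.8% of all tested sets.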

How the data were processed

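Transcript levels in phyllome RNA of 12 samples were read on a wheat Affymetrix array after one-cycle biotin labelling, per the labels' protocols. The deposited values are intensity on a linear scale. The authors used MAS5, per the submitters' processing notes, and its version and settings are not given in the sources read. No paper was used, so no link to probe sets or functions named in one was made.

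The 111 AFFX and 64 RPTR control probe sets were left out of tests. A probe set was tested if 3 or more of the 12 arrays put it over their median, which held for 38398 of 61115 (62.8%). A probe set bright in 1 group alone could pass. The means of the 4 groups were fitted to log2(value + 16) in R 4.3.3 with limma 3.58.1, using a trended eBayes, with contrasts R minus S in each regime, drought in each genotype, and the interaction. Benjamini-Hochberg adjustment ran over all tested probe sets (threshold 0.05). Errors beside log2 values are SE, with a median of 0.47 for R minus S under drought. The number of arrays, 3 per group, limits the precision. The procedure was tested on simulated data.

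Named were all tested genes with a symbol. Added to them, per class and direction, were up to 10 probe sets of locus-numbered genes and up to 2 probe sets without a gene. The added sets all had drought arrays that did not overlap. Gene names come from the platform annotation. It gives no roles for locus numbers, and no sequences were used. Members, lists and limits were chosen with earlier results of these data known. Alternatives were pseudocounts of 1 and 64, other filters, array weights, untrended eBayes, a model of the 6 drought arrays, a replicate block, a 2-fold minimum, other noise limits and scalings, and each array left out. Leaving out replicate 2 of both watered groups was added after seeing the data. Python 3.11.15 and matplotlib 3.10.9 drew the figures.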

Additional observations from a re-analysis of the deposited data

Results flagged for a closer look

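In 4 named probe sets the genotype difference was not the same under drought and in watered plants by the interaction test (limma, adjusted over all tested probe sets). The interaction, drought minus watered difference in log2, was −7.73 in LOC543479 on Ta.64.1.S1_at (adjusted p = 0.0063) and −6.72 in Ta.13818.1.S1_at (adjusted p = 0.019). In both, R was under S on every drought array and S was under the noise limit on at least 2 of its 3 watered arrays. It was −3.88 in TaAffx.42928.1.S1_at (adjusted p = 0.037), where R was lower in both regimes, with S at 8265, 5206 and 7260 under drought and at 1050, 479 and 1162 when watered. It was 4.19 in Ta.438.3.S1_at (adjusted p = 0.022), where R read 28197, 23333 and 20107 under drought and 1872, 1371 and 1799 when watered, while S read 554, 314 and 287 under drought and 327, 1298 and 262 when watered. Well-watered S replicate 2 was the high array there.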

How the results depend on the processing

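No called difference of a named probe set changed sign under the alternatives run. Over the named probe sets, 921 values kept their side of the threshold under other settings and 82 lost the call. With arrays left out, 757 kept it, 106 lost it and 2 gained it, GAPN without R drought replicate 3 and XTH without watered S replicate 3. Hybridization control scaling gave 2092 higher and 512 lower, 688 R only, 224 S only and 115 graded lower probe sets, and 83 with the interaction. Poly-A control scaling gave 784 higher and 967 lower, 204 graded higher and 319 graded lower. Median scaling gave 450 graded lower and 95 with the interaction. eBayes without a trend gave 382 graded higher, 363 graded lower and 13 with the interaction. A noise limit at the highest control value gave 446 graded lower. The count with the interaction was 102 with a pseudocount of 64, 57 with array weights and 222 with signals under the limit set to it. Without replicate 2 of both watered groups, 344 sets were R only in both regimes and 18 passed the interaction. The cause of these shifts was not tested. Leaving out single arrays gave 832 to 1445 higher, 787 to 1966 lower, 329 to 439 R only, 297 to 555 S only, 381 to 702 graded higher, 364 to 985 graded lower, 171 to 270 R only in both regimes, 122 to 171 S only in both, and 13 to 54 with the interaction. Same-numbered R and S drought arrays correlated by 0.181, 0.010 and −0.024 in their deviations, so the numbers are not shown to pair them, and 1 other combination (R replicate 3 with S replicate 2) reached 0.223. With the replicate block, 1254 were higher, 1398 lower, 406 R only, 397 S only and 29 passed the interaction. Signal near the noise limit bounds the all-or-none classes, and 246 R only and 270 S only sets have a bright array below the highest control value.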
